A study of Mus musculus with 3 samples.

Results

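The 8 genes described here encode the receptors for interleukin-3 (IL-3), GM-CSF and IL-5 and their ligands. They are the α chain genes Il3ra, Csf2ra and Il5ra, the β chain genes Csf2rb and Csf2rb2, and the ligand genes Il3, Csf2 and Il5. They were taken by name, with earlier results of these data known, and all 8 were found among 55211 genes joined across the samples. The samples form 1 group of 3 separate cultures of Ba/F3, a mouse haematopoietic cell line that depends on IL-3, and every culture was kept in 0.2 ng/mL recombinant murine IL-3 with 10% fetal calf serum. No culture without IL-3 and no second condition was analysed here, so levels and the spread between cultures are described and no treatment is compared. Polyadenylated RNA was read as 50-base single ends. The reads counted to genes totalled 32044889 to 37180883 per culture. Because polyadenylated RNA from the bulk of each culture was read, fewer expressing cells and less RNA per cell cannot be told apart.

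IL-3, GM-CSF and IL-5 each bind an α chain that is particular to that cytokine, and the pair then engages a β chain that carries the signal. The β chain holds the kinase JAK2, which phosphorylates the receptor and the transcription factor STAT5, and adaptors link the same tail to the RAS and phosphoinositide 3-kinase routes. Mice have a pair of neighbouring β chain genes. Csf2rb encodes the common chain used by all 3 cytokines, and Csf2rb2 encodes a close copy that works with IL-3 alone. Activated T cells, mast cells and basophils are the usual sources of IL-3, and Ba/F3 is widely used to test kinases and receptors because it dies without the cytokine.

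The β chain copies are so alike that the reads of one gene could be taken for the other, so their sequences are given first. The transcript with the longest coding sequence was taken for each gene (GENCODE M21, GRCm38). Over 2628 aligned coding bases, 95.2% were identical and 125 were substitutions, and a further 66 bases lay in gaps. Among 90-base coding stretches without gaps and within a single exon of both genes, the one with the most differences, 16 in all, is in exon 4 of both. Capitals mark the bases that differ.
Csf2rb, chr15:78338897-78338986, plus strand: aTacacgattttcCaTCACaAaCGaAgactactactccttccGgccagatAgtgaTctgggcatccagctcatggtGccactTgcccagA
Csf2rb2, chr15:78294345-78294434, minus strand: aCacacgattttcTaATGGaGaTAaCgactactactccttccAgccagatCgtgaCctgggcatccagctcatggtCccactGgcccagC
The differences are not evenly placed, so reads from this stretch differ in how many of them they cover. The longest coding run without any difference within an exon spans 242 bases of exon 14 in both genes, and a read that falls inside it cannot be assigned to either. It lies at chr15:78348577-78348818 on the plus strand in Csf2rb and at chr15:78284630-78284871 on the minus strand in Csf2rb2, and no capitals are used because no base differs.
Csf2rb and Csf2rb2, shared run: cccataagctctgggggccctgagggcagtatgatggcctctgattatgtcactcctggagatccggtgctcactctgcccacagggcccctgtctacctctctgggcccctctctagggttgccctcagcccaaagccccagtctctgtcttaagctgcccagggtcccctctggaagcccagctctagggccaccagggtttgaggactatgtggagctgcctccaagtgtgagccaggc

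Words of 50 bases were matched to other transcripts on either strand. Of all 7268 different 50-base words in the annotated Csf2rb transcripts, 12.3% also occurred in a transcript of another gene, and 892 of these 894 shared words were shared with Csf2rb2. Of 4836 words in the Csf2rb2 transcripts, 18.9% occurred in another gene, again 892 of them in Csf2rb. Within the aligned coding sequences, 26.0% of 2645 windows of 50 bases were identical. Most read positions thus carried a base that separates the copies. For Il3ra, Csf2ra and Il3 no 50-base word occurred in any other annotated transcript. The low members are less clean: 6.39% of the words of Csf2 also lie in the antisense gene Gm12223 and 21.6% of the words of Il5 in the antisense gene Gm12214, both of which had 0 reads in every culture. How reads with several matches were treated, and whether strand was used in counting, is not given in the sources used here.

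Of the 8 genes, 5 were detected, defined as at least 1 CPM in every culture. CPM is the reads of a gene divided by all reads counted to genes in its culture and scaled to the usual base of this unit. Over all genes measured 19.9% were detected, and over protein-coding genes 45.9%. The detected genes were both β chains, the α chains Il3ra and Csf2ra, and the ligand Il3. Csf2ra was close to the threshold, at 1.18 CPM in culture 2 with an exact Poisson 95% interval of 0.843 to 1.61. The other three, Il5ra, Csf2 and Il5, had 4 reads in all cultures together.

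**Figure D1:**
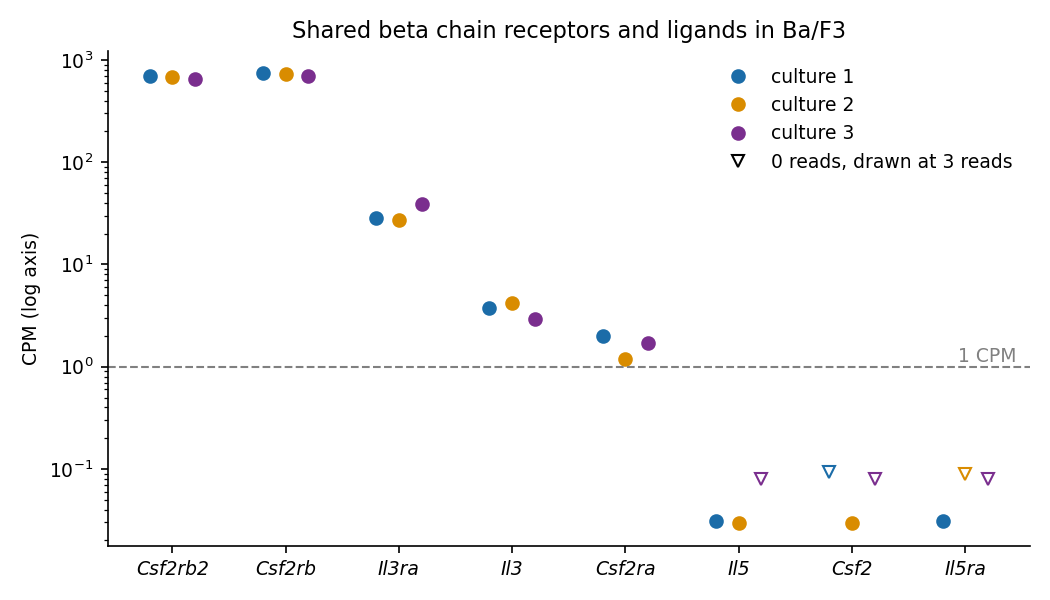
CPM of each gene in cultures 1, 2 and 3 on a log axis, ordered by level per transcript length. Filled points are measured values, open triangles stand at 3 reads for a culture with 0 reads, and the dashed line is the detection threshold of 1 CPM. A culture with 0 reads is thus drawn above a culture with 1 read. Both β chains lie at 653.8 to 741 CPM in every culture, Il3ra at 27.3 to 38.7, Il3 and Csf2ra between 1.18 and 4.19, and the last 3 genes at 1 or 0 reads per culture.

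Csf2rb, the common β chain gene (ENSMUSG00000071713, chr15:78325752-78353847, plus strand), had 23747, 24549 and 25953 reads in cultures 1, 2 and 3, or 741, 725 and 698 CPM with a mean of 721 ± 21.7 (SD, n = 3). Csf2rb2, the IL-3-specific copy (ENSMUSG00000071714, chr15:78282507-78305721, minus strand), had 22298, 22908 and 24309 reads, or 696, 676 and 653.8 CPM with a mean of 675 ± 21.03 (SD, n = 3). Both genes were high in every culture, and Csf2rb was above Csf2rb2 in CPM in each. Together they took 0.144%, 0.140% and 0.135% of all reads counted to genes.

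The balance of assigned reads between the copies was almost fixed. The share of β chain reads that Csf2rb supplied was 51.6% in culture 1, with 95% Wilson bounds of 51.1 and 52.0. It was 51.7% in culture 2, with bounds of 51.3 and 52.2, and 51.6% in culture 3, with bounds of 51.2 and 52.1. No test compared the shares between cultures. The intervals overlap, and counting error is the error they cover. They do not cover the assignment of reads that match both copies. Of the 50-base coding windows 26.0% were identical, and how such reads were counted is not known. The shares may thus depend on that rule. The Csf2rb to Csf2rb2 ratio of CPM was 1.07 ± 0.00335 (SD, n = 3). Per transcript length the order of the copies depends on the gene model. TPM divides reads by the merged exon length of a gene and rescales to the sum over all genes. In TPM Csf2rb2 averaged 495.8 ± 17.8 and Csf2rb 345 ± 12.2, since merged exons give 4740 bases for Csf2rb2 and 7277 for Csf2rb. With the longest transcript as the length (4740 and 4900 bases) the means were 368 ± 13.8 for Csf2rb2 and 380 ± 13.9 for Csf2rb, and the order turned.

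Il3ra, the α chain that gives the receptor its affinity for IL-3 (ENSMUSG00000068758, chr14:14346275-14356011, plus strand), had 903, 924 and 1440 reads in cultures 1, 2 and 3, or 28.2, 27.3 and 38.7 CPM. Per length this is 33.1, 32.2 and 45.1 TPM, a mean of 36.8 ± 7.22 (SD, n = 3). Culture 3 was the high one, and cultures 1 and 2 were close to each other. The antisense gene Gm48860, which overlaps the first part of Il3ra, had 12, 9 and 12 reads. Csf2ra, the GM-CSF α chain (ENSMUSG00000059326, chr19:61223957-61228429, minus strand), had 64, 40 and 63 reads, which is 1.997, 1.18 and 1.69 CPM. Its mean was 1.62 ± 0.413 CPM or 1.97 ± 0.498 TPM. Culture 2 was lowest, with an exact Poisson interval of 0.843 to 1.61 CPM beside 1.54 to 2.55 in culture 1. Il5ra, the IL-5 α chain (ENSMUSG00000005364, chr6:106710357-106749037, minus strand), had 1 read in culture 1 and 0 in the others. Over all cultures its level was 0.00970 CPM, with an exact Poisson 95% upper bound of 0.0540.

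Among α chain levels per length, Il3ra held 93.1%, 95.7% and 95.7% in cultures 1, 2 and 3, and Csf2ra held 6.82%, 4.28% and 4.33%. The TPM of Il3ra was 13.7, 22.4 and 22.1 times that of Csf2ra. The α chain of IL-3 thus led in every culture, and its ranges and those of Csf2ra did not overlap. The TPM of Csf2rb exceeded that of Il3ra 10.7, 10.8 and 7.35 times in cultures 1, 2 and 3, a mean of 9.63 ± 1.98 (SD, n = 3). Both β chains together stood at 26.2, 26.4 and 17.9 times Il3ra. Without length, in CPM, the ratio of Csf2rb to Il3ra was 23.6 ± 4.86. Culture 3 had the lowest ratio on each scale, since it had the highest Il3ra and the lowest Csf2rb level.

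The ligand gene Il3 itself was read (ENSMUSG00000018914, chr11:54265303-54267277, minus strand). It had 119, 142 and 108 reads in cultures 1, 2 and 3, or 3.71, 4.19 and 2.90 CPM, with exact Poisson intervals of 3.08 to 4.44, 3.53 to 4.94 and 2.38 to 3.51. All lie above the level of 3 reads, 0.0807 to 0.0936 CPM, used here as the floor for a gene with 0 reads. The mean was 3.60 ± 0.650 CPM. Its transcript is short (629 bases), so that the level per length was 20.6, 23.3 and 16.0 TPM, a mean of 19.95 ± 3.72 (SD, n = 3). In TPM, Il3ra was 1.61, 1.38 and 2.83 times as high as Il3. No annotated gene overlapped Il3, and no 50-base word of its transcript occurred elsewhere in the annotated transcripts. Sequence outside the annotated transcripts was not searched, and the source of the Il3 reads was not tested.

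The other ligand genes were at the limit of the depth. Csf2, which encodes GM-CSF (ENSMUSG00000018916, chr11:54247271-54249667, minus strand), had 1 read in culture 2 and 0 in the others. Il5 (ENSMUSG00000036117, chr11:53720794-53725106, plus strand), which encodes the eosinophil growth factor IL-5, had 1 read in culture 1, 1 in culture 2 and 0 in culture 3. Over all cultures Csf2 stood at 0.00970 CPM (exact Poisson 95% interval 0.000246 to 0.0540) and Il5 at 0.0194 (0.00235 to 0.0701). The intervals cover counting error only.

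Il3 and Csf2 are neighbours on chromosome 11, 15636 bases apart and on the same strand, and most protein-coding genes around them had few or no reads. On the Csf2 side, P4ha2, a collagen prolyl hydroxylase gene, and Pdlim4 had 0 reads, and the carnitine transporter family gene Slc22a4 had 1, 3 and 6. On the Il3 side, the acyl-CoA synthetase gene Acsl6 had 0, 2 and 2 reads and Meikin, a meiotic kinetochore gene, 0. The next gene, Fnip1, a folliculin partner gene that starts 170922 bases from Il3, was detected at 75.4 ± 0.687 CPM. Il3 and Fnip1 were the detected genes of this stretch. Around Il5 the DNA repair gene Rad50 stood at 107 ± 3.09 CPM and the transcription factor gene Irf1 at 21.5 ± 2.71. The cytokine genes Il13 (0, 2 and 2 reads) and Il4 (0, 2 and 0 reads) were not detected, nor were Gm17334 (4, 4 and 5 reads) and Gm12216 (27, 32 and 27 reads).

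The β chain locus on chromosome 15 differed from this. Csf2rb2 and Csf2rb lie 20031 bases apart, and Ncf4, a phagocyte oxidase subunit gene 19927 bases beyond Csf2rb2, was detected at 67.9 ± 1.54 CPM. Pvalb and Tex33, the next on either side, had 0 reads. Ift27, Tst and Mpst, farther out, were detected at 11.4 ± 0.551, 4.24 ± 0.354 and 28.7 ± 5.82 CPM. No neighbour came near the level of the β chains. The genes next to Il3ra were olfactory receptor genes, with 1 read for Olfr31 and 0 for Olfr720 and Olfr721-ps1, while Psmd6 (54.5 ± 2.56 CPM), Slc4a7 (128 ± 4.22) and Nek10 (4.60 ± 0.579) beyond them were detected. Around Csf2ra the zinc finger gene Zfp950 was detected at 20.4 ± 3.77 CPM, and Gm6020, Gm7102 and Gm21060 had 0 to 3 reads per culture. Around Il5ra the neuronal adhesion genes Cntn4, Cntn6 and Chl1 had 0 to 11 reads per culture and Lrrn1 had 0, while Trnt1 (46.7 ± 1.58 CPM) and Crbn (36.3 ± 1.07) were detected.

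**Figure D2:**
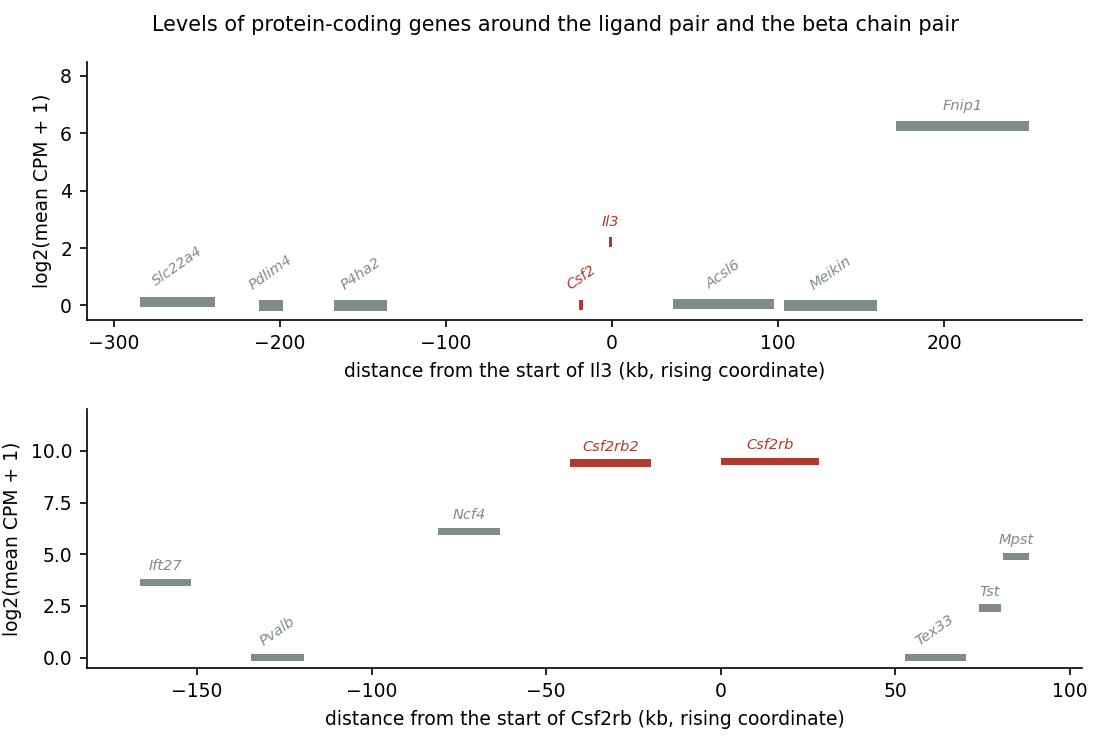
Mean level over the 3 cultures, as log2(CPM + 1), of the 3 nearest protein-coding genes on each side of the Il3 and Csf2 pair (top) and of the Csf2rb2 and Csf2rb pair (bottom), by distance from the start of Il3 or Csf2rb in kb. Red bars are the ligand and β chain genes, and bar width is the gene body. Il3 stands above Csf2 and its nearest neighbours, which are at or near 0, and below Fnip1 at the far right, whereas the β chains stand above all neighbours shown, among them Ncf4 and Mpst.

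Promoter sequence from RefSeq (GRCm38.p6) was available for 7 of the 8 genes, as the 250 bases before the tabulated start. Those of Il3 and Csf2 are shown because one neighbour was detected and the other was not, and that of Csf2rb2 because it has the highest level per merged exon length. Capitals mark matches, on either strand, to the motifs TTCNNNGAA (STAT factors), GATAA (GATA factors), TGTGGT (RUNX factors), TGANTCA (AP-1) and TATAA (the TATA box).
Il3, chr11:54267280-54267529, minus strand: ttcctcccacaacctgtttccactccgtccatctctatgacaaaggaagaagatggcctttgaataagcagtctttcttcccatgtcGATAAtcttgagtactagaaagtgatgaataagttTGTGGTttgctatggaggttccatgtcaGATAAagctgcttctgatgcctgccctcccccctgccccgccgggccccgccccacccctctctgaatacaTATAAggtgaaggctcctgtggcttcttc
Csf2, chr11:54249900-54250149, minus strand: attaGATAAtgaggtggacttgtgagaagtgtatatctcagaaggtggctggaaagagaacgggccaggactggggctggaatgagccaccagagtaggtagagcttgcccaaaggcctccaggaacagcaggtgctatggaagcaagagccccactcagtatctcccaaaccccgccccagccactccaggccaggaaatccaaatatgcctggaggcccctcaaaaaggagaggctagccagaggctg
Csf2rb2, chr15:78305722-78305971, minus strand: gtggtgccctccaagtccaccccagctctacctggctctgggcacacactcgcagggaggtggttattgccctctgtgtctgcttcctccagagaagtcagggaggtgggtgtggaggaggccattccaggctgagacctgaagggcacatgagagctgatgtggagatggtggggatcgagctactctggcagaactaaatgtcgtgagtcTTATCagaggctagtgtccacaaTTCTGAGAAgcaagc
The Il3 window held GATAA at 163 to 159 and at 100 to 96 bases before the start, TGTGGT at 128 to 123, and TATAA at 29 to 25. The Csf2 window held GATAA at 246 to 242 and none of the others. Its tabulated start lies 232 bases upstream of the GENCODE gene start, so this window is not placed like that of Il3. It leaves out the bases just before the GENCODE start of Csf2, and motifs there were not read. The Csf2rb2 window held TTCNNNGAA at 15 to 7 and GATAA on the opposite strand at 38 to 34.

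Among 32851 promoter windows of the same length, TTCNNNGAA occurred in 7.02%, GATAA in 22.6%, TGTGGT in 14.0%, TGANTCA in 6.75% and TATAA in 22.8%. The motifs do not overlap one another in these windows. The windows of Il3ra and Csf2ra held none of the motifs; they are rich in G and C (72.4% and 64.8%, beside a median of 52.4%) and in CG pairs (27 and 17, beside a median of 6). The tabulated start of Il3ra lies inside the GENCODE gene, so most of its window is gene body. The Il5ra window held GATAA and TGANTCA and was 48.0% G and C, and the Il5 window held TATAA on the opposite strand and was 37.6%. A match describes letters and does not show that a factor was bound.

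Differences between cultures were set against Poisson counting noise with a chi-square test. It covered the 13141 genes that averaged 10 reads or more, with p-values adjusted over all of them (Benjamini-Hochberg) and a threshold of 0.05. It says whether libraries differ, not conditions, and it calls small differences in genes with many reads. Of the 5 receptor and ligand genes that could be tested, 4 were called, beside 32.8% of all genes tested and 37.1% of detected genes. With a common dispersion between cultures added to counting noise (0.004996, a coefficient of variation of 7.07%), 1 of 5 was called, beside 3.66% of all genes, and that gene was Il3ra.

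For Il3ra the chi-square test gave an adjusted p of 3.9e-19, and 0.0295 with the common dispersion. The highest culture was 1.42 times the lowest. Of 4053 detected genes within 2 times its level, Il3ra itself counted, 123 (3.03%) had a ratio at least as large, and the median ratio of the 4053 was 1.09. Culture 3 alone carried the difference: without it the adjusted p was 0.708, and without culture 1 or culture 2 it was 6.1e-15 or 1.2e-12. Culture 3 was also the only culture read by symbol and coordinates. The check of that join covered genes above 13 log2 units, higher than Il3ra. Whether the join plays a part in the Il3ra difference was not tested. Csf2ra (1.69) and Il3 (1.44) had larger ratios with fewer reads, but larger shares of the genes of like level had ratios as large as theirs, as the plot of spread by level shows.

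**Figure D3:**
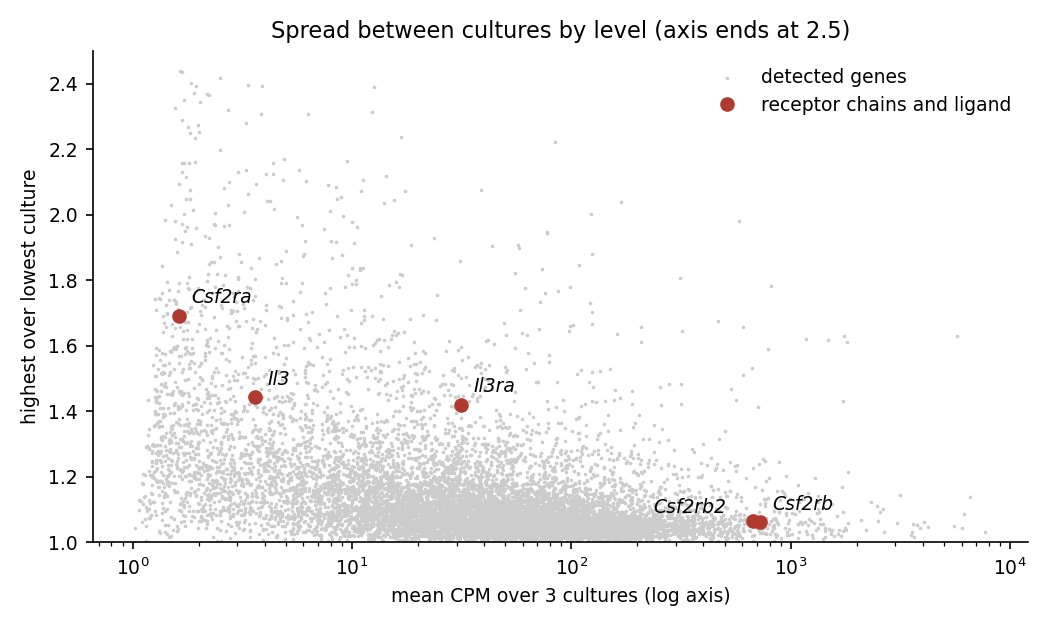
Ratio of the highest to the lowest culture against mean CPM (log axis) for detected genes, in grey, with the 5 detected receptor and ligand genes in red. The ratio axis ends at 2.5, and 13 of 10991 detected genes lie above it. Il3ra at 1.42 lies above most genes of its level, while Csf2rb and Csf2rb2 at 1.06 lie in the middle of theirs.

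The β chains differed between cultures by little. For Csf2rb the highest culture was 1.06 times the lowest (adjusted p of 1.6e-09 by the chi-square test), and 49.6% of 367 detected genes within 2 times its level had a ratio as large. For Csf2rb2 the ratio was also 1.06 (adjusted p of 1.9e-09), with 46.9% of 407 such genes as large. Both called differences have many reads behind them, and with the common dispersion both adjusted p values were 0.999994. In both genes culture 1 was highest and culture 3 lowest, whereas culture 3 was highest in Il3ra. The Csf2rb call ended without culture 3 (adjusted p of 0.0625), and the Csf2rb2 call did not (0.0149).

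Il3 was called with an adjusted p of 0.0460 by the chi-square test, the highest culture being 1.44 times the lowest, and 20.9% of 1333 detected genes of like level had a ratio as large. Here culture 2 was highest and culture 3 lowest. The call ended with the common dispersion (adjusted p of 0.661), without culture 2 (0.159), without culture 3 (0.575), with trimmed mean of M values scaling (0.0569) and with no minimum of reads (0.0788). Csf2ra was not called (adjusted p of 0.0827, ratio 1.69), and 13.3% of 966 detected genes of like level had a ratio as large. Without culture 3 its adjusted p was 0.0428. At 40 to 64 reads per culture, differences of this size were not told apart from counting noise by the main test.

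The genes whose pattern over the 3 cultures was nearest to that of Il3ra, by Euclidean distance of log2(CPM + 1) centred on each gene, were taken from 8827 genes averaging 10 CPM or more. Id1, an inhibitor of basic helix-loop-helix factors, was nearest at 58.0, 55.7 and 77.8 CPM in cultures 1, 2 and 3 (distance 0.02). Apba3, an adaptor gene, followed at 27.1, 24.97 and 36.1 CPM (0.05), and Ier2, an immediate early gene, at 129, 132 and 180 CPM (0.06). For Il3 the nearest were Gm6969 (35.9, 36.6 and 28.1 CPM), Gm8130 (102, 111 and 89.6 CPM) and Gapdh (698, 731 and 596 CPM), each at a distance of 0.08. At the level of Il3, 2.90 to 4.19 CPM, the added 1 narrows its pattern more than that of these genes. These matches are thus to the narrowed pattern and not to the CPM ratios of Il3. Gapdh has many processed copies in the mouse genome, and how reads shared with such copies were counted is not known. With 3 cultures many genes can match a pattern, and 18 genes lay within 0.1 of Il3ra.

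**Figure D4:**
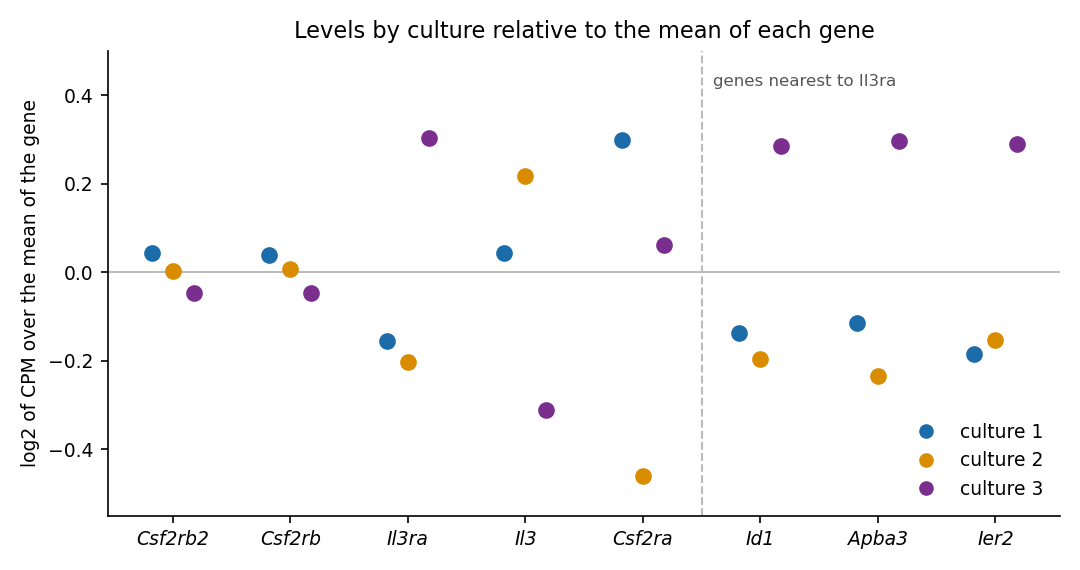
log2 of the CPM in each culture over the mean of the gene, for the 5 detected receptor and ligand genes (left of the dashed line) and for the 3 genes nearest to Il3ra (right). Colours are cultures 1, 2 and 3. Csf2rb and Csf2rb2 keep the same narrow order with culture 3 lowest, while in Il3ra, Id1, Apba3 and Ier2 culture 3 is highest and the other cultures lie close together.

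Per length, the order of the 8 genes was Csf2rb2, Csf2rb, Il3ra, Il3, Csf2ra, and then Il5, Csf2 and Il5ra. The ranges over the cultures did not overlap between neighbours in the first 5 places, or between Csf2ra and Il5. Within the last 3 they overlapped, so these have no order. The order of the first pair turned with the longest transcript as the length.

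Set beside a chosen list of 22 other type I cytokine receptor chains, which does not cover the whole family, the β chains held the first 2 places in TPM. Il2rg, the common γ chain of the IL-2 family, came next at 70.7 ± 5.90 TPM, then Il4ra at 64.0 ± 1.70 and Crlf2, the thymic stromal lymphopoietin receptor chain, at 56.5 ± 17.7 (SD, n = 3). Il3ra was in place 6 of 27 and Csf2ra in place 12. Of the 22 other chains 8 were detected, and 7 had 0 reads in every culture. Csf2rb was above Il2rg in every culture. Crlf2 was the chain on this list whose spread passed the test with the common dispersion, and its highest culture was 1.75 times its lowest.

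**Figure D5:**
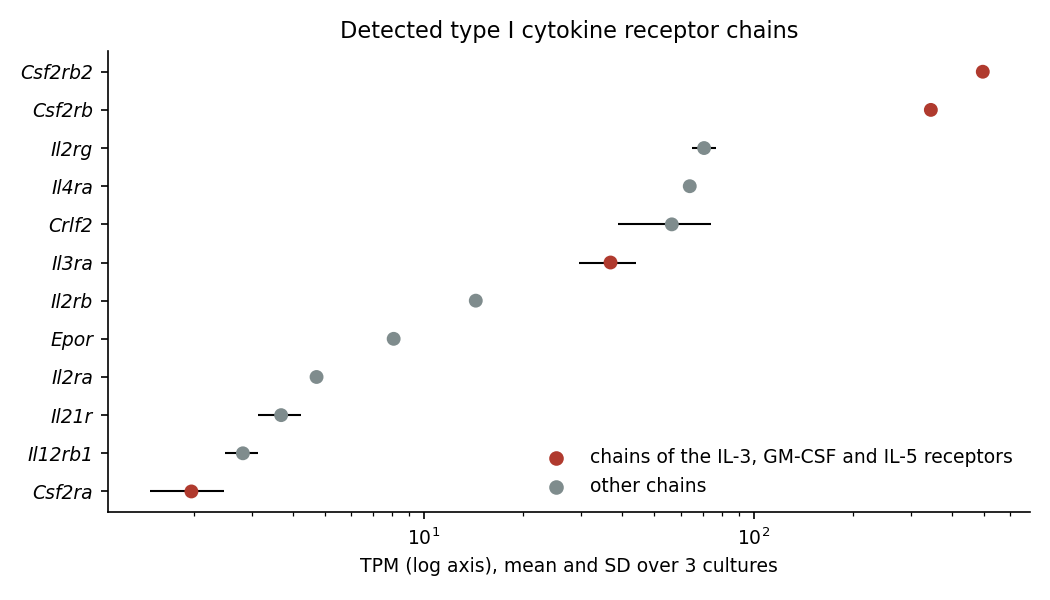
TPM (log axis) of the 12 chains detected among 27 listed type I cytokine receptor chains, as mean and SD over 3 cultures. Red points are chains of the IL-3, GM-CSF and IL-5 receptors, grey points other chains. Csf2rb2 and Csf2rb lie above all others shown, Il3ra stands in place 6 and Csf2ra has the lowest mean among the detected chains.

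Signal relay genes were taken from a chosen list of kinases, adaptors and STAT5 genes that does not cover every route. Like the other lists here, it was chosen with earlier results of these data known. The counts detected and the medians may reflect that choice. All 16 were detected, with a median of 70.4 TPM beside 30.1 over all detected genes. Pik3cd, the δ catalytic subunit of phosphoinositide 3-kinase, led at 687 ± 17.7 TPM, followed by the kinase gene Jak1 at 373.5 ± 9.51 and the 14-3-3 protein gene Ywhaz at 294 ± 10.9. Of the 16, 11 were called by the chi-square test, beside 37.1% of detected genes, and 0 with the common dispersion, beside 3.66% of genes tested. The largest ratio of the highest to the lowest culture among them was 1.12, beside 1.42 for Il3ra. Of all 10991 detected genes, 752 (6.84%), Il3ra among them, had a ratio at least as large as that of Il3ra. Of the restraint genes described next, Socs1 did, at 1.44.

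All 12 restraint genes, which encode inhibitors and phosphatases of cytokine signalling, were detected, with a median of 58.3 TPM. The SHP-1 phosphatase gene Ptpn6 led at 230.1 ± 8.95 TPM, then Cish, a STAT5-induced inhibitor, at 212 ± 25.8, and the SHIP1 phosphatase gene Inpp5d at 106 ± 2.01. By the chi-square test 7 of the 12 were called, beside 37.1% of detected genes, and 0 with the common dispersion, beside 3.66% of genes tested. Of 10 genes listed as IL-3 targets, 9 were detected, with a median of 247 TPM over the 9. The kinase gene Pim1 led at 1164 ± 75.0 TPM, followed by Myc at 505 ± 12.8 and the anti-apoptotic gene Mcl1 at 486 ± 16.1. Egr1, an immediate early factor gene, was not detected, with 2 reads in each culture. Of the 9 tested, 8 were called, beside 37.1% of detected genes, and Id1 was the 1 called with the common dispersion, beside 3.66% of genes tested.

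Marker lists were read beside these levels. Of 10 early B cell markers, Cd79b (47.4 ± 2.80 TPM) and Cd79a (4.18 ± 0.266) were detected, and 6, with Ebf1 and Rag1 among them, had 0 reads; the list summed to 48.9 to 53.9 TPM per culture. Of 10 T cell markers, Lck (7.39 ± 0.361 TPM) and Cd3g (4.45 ± 0.270) were detected, and Cd8a, Cd28 and Ifng had 0 reads, with a sum of 11.96 to 12.2 TPM. Of 9 mast cell and basophil markers, Gata2 (397 ± 12.1 TPM) and Ms4a2 (6.76 ± 1.23) were detected, and Fcer1a, Mcpt8 and Tpsb2 had 0 reads. Kit, Cpa3, Mcpt4 and Hdc were not detected, at 0 to 23 reads per culture. The list summed to 395 to 416 TPM, of which Gata2 alone gave 386 to 410. Of 6 eosinophil markers, Epx, the eosinophil peroxidase gene (2250 ± 40.5 TPM), Prg2, the major basic protein gene (854 ± 7.22), and Siglecf (4.90 ± 0.0769) were detected. Ccr3 and Alox15 had 2 to 4 reads per culture and Ear2 had 0. The sum of 3056 to 3143 TPM came almost wholly from Epx and Prg2. In these cultures Il5ra, the IL-5 α chain found on eosinophils, had 1 read. Whether any of these lists plays a part in the level of Il3 or the receptor genes was not tested.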

How the data were processed

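Libraries from 3 Ba/F3 cultures were made with a kit that marks strand, per the labels' protocols. The authors used HISAT2 with GRCm38 and the in-house counter GenSum, per the design text of the series, which names no version. The deposited unit is log2 of reads per 10000000 plus 1: on the linear scale each column summed to 10000000, and 100% of entries were whole reads within 0.01. In the deposited table of 55486 rows, identifier and symbol name the same gene in 0 of the 23001 rows with reads. Cultures 1 and 2 were read by identifier and culture 3 by symbol and coordinates, matched through GENCODE M21 by coordinates (54916 rows) or a symbol of 1 gene (324); 246 rows stayed unmatched. As a check, the median gap of culture 3 to the other cultures was 0.06 log2 units over 120 joined genes above 13, and 0.66 over 120 rows as deposited. The authors' average mixes genes and was not used.

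Reads were scaled to the column sum. The pseudocount was 1. The design assumed counts; the unit is log2, so the chi-square test ran on recovered reads, with a common dispersion fitted to 10126 genes with at least 100 reads. Both were tested on simulated data. Python 3.11.15, scipy 1.17.1, Biopython 1.88 and matplotlib 3.10.9 were used. The 95 entries of 8 gene lists, all measured, and the members were chosen with earlier results of these data known. By the rule for names, each pathway list gave its 3 highest members by TPM and those not detected, and each member locus its nearest 3 protein-coding genes a side. Protein sequences were not used here. The cultures were separate, per the design text, and p-values measure the spread between these libraries. Alternatives covered thresholds, scaling, lengths, minimum reads, rows as deposited and each culture left out.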

Additional observations from a re-analysis of the deposited data

How the results depend on the processing

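Of the alternatives tried, the number of detected members, 5, became 3 with a threshold of 5 CPM and was 5 in every other setting, each culture left out included. The members lost at 5 CPM were Csf2ra and Il3. With culture 3 read from the same row, as deposited, its value belongs to another gene. That setting gives the size of the row mismatch and is not a second estimate of a member. Under it the level of Csf2rb was 754 CPM beside 721, and that of Csf2rb2 712 beside 675. The other members moved by less than the SD between cultures. The ratio of Csf2rb to Il3ra per length, 9.63, was 23.6 in CPM and 23.5 with Csf2rb and Csf2rb2 summed, and 9.04 to 10.8 with a culture left out. The log2 ratio of Csf2rb to Csf2rb2 per length, -0.52, reversed to 0.047 with the longest transcript and to 0.095 in CPM, because merged exons make Csf2rb longer; it was added after the data were seen. With the common dispersion, members called fell to 1 beside 4, and genes called to 481 beside 4304. With a culture left out, members called ranged between 2 and 4, lowest without culture 3 (2), and genes called between 1460, without culture 1, and 3900, with 2655 without culture 3; the cause was not tested. No paired analysis was possible because the cultures form 1 group. Depth limits Il5ra, Csf2 and Il5, with 1 or 2 reads each in all.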
